A study of Mus musculus with 2 samples.

Results

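Oxidative phosphorylation is the system by which mitochondria pass electrons from NADH and succinate to oxygen and use the released energy to make ATP. Its genes were taken from the deposited table by symbol: protein-coding genes named as subunits of the 5 respiratory complexes (Nduf, Sdh, Uqcr and Cyc1, Cox4 to Cox8, Atp5) and all genes whose symbol begins with mt-. The table held 98 such genes of 21911, 85 of them nuclear and 13 encoded by mitochondrial DNA. A mean of at least 1 FPKM over both libraries (fragments scaled to transcript length and to library size) was reached by 90 of the 98, among 10267 genes of the whole table. The other 8 were a very low Cox4i2 and 7 further isoforms listed at 0. The annotation also holds 11 processed pseudogenes with matching symbols, which were not taken as members. None of its 24 mitochondrial tRNA and rRNA genes was in the table.

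The cells were 4T1, a mouse mammary carcinoma line that metastasizes to the lung. They were kept for 48 h with PBS, the control, or with potassium oxalate, the salt of a small dicarboxylic acid that is an end product of glyoxylate metabolism. The dose is given as 20 µM in the sample characteristics and as 20 mM in the treatment protocol. A single library per condition was made from polyadenylated RNA with random primers. There were no replicates, so no difference below has a replicate error and no test between the conditions was possible. Differences are log2((oxalate + 1)/(PBS + 1)) of the FPKM values, negative where the oxalate library was lower, and understate the change of low genes. From the steps between low values the depth was estimated at 5.67e+07 reads for PBS and 3.64e+07 reads for oxalate. A counting interval is the 95% interval of the log2 ratio of a gene's estimated reads, scaled to depth and computed by the exact Clopper-Pearson method. It covers counting error only, not differences between cultures or preparations.

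The respiratory chain has a mixed origin. Complex I takes electrons from NADH, complex II from succinate, complex III passes them to cytochrome c, complex IV passes them to oxygen, and complex V, the ATP synthase, lets protons flow back to make ATP. Mitochondrial DNA encodes a few hydrophobic subunits of complexes I, III, IV and V, while complex II is wholly nuclear. In complexes I, III and V the nuclear genes were divided here into core subunits, which do the catalysis or form the body of the enzyme, and the other, mostly small subunits around them.

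The labelled cell line was compared with marker genes first. The epithelial genes Epcam, Cdh1, Krt8, Krt18, Krt14 and Cldn4 were at 74.6 to 402 FPKM with PBS and 71.1 to 429 with oxalate, and Krt5 was at 0 and 0.03 FPKM. The 7 summed to 1361 FPKM with PBS and 1420 FPKM with oxalate. Of 6 leukocyte markers 5, including the defining Ptprc, were listed at 0 in both libraries, and Cd68 was at 7.79 and 7.11 FPKM. The 5 fibroblast markers summed to 147 FPKM in each library, nearly all from Col1a1. Sums were at most 0.09 FPKM for 3 endothelial markers, 0.44 FPKM for 5 muscle markers and 0.18 FPKM for 4 testis markers, with Kdr, Ckm, Myh7 and Tnp1 at 0 in both. In bulk RNA, fewer cells of a type and less RNA per cell cannot be told apart.

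Mitochondrially encoded mRNAs were far more abundant per length than nuclear ones. The 13 summed to 57974 FPKM with PBS and 54861 FPKM with oxalate, or 10.2% and 9.81% of all FPKM. The 85 nuclear genes summed to 8435 and 7908 FPKM, or 1.49% and 1.41%. The median expressed gene of the mitochondrial set was at 5073 FPKM with PBS, that of the nuclear set at 64.5 FPKM and that of all 10267 genes at 16.5 FPKM. Among the nuclear complexes the PBS medians were 51.6 FPKM for complex I, 53.4 for complex II, 95.5 for complex III, 118 for complex IV and 108 for complex V. The genes of each complex spread widely around these medians.

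Among the expressed genes, the extremes of each complex were the same in both libraries. In complex I they were Ndufa4, a small subunit now often assigned to complex IV, at 254 FPKM with PBS and 243 with oxalate, and Ndufb2 at 2.25 and 2.31 FPKM. In complex II they were Sdha, the flavoprotein that oxidizes succinate, and Sdhc, a membrane anchor. In complex III they were Uqcrc1, a core protein facing the matrix, at 518 and 510 FPKM, and Uqcrfs1, the Rieske iron-sulfur protein, at 41.8 and 40.4 FPKM. In complex IV they were Cox6a1 at 672 and 546 FPKM and Cox7a2 at 37.5 and 38.2 FPKM. In complex V they were Atp5b, the catalytic beta subunit, at 949 and 909 FPKM, and Atp5s, a coupling factor that is no structural subunit, at 1.84 and 1.76 FPKM.

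**Figure D1:**
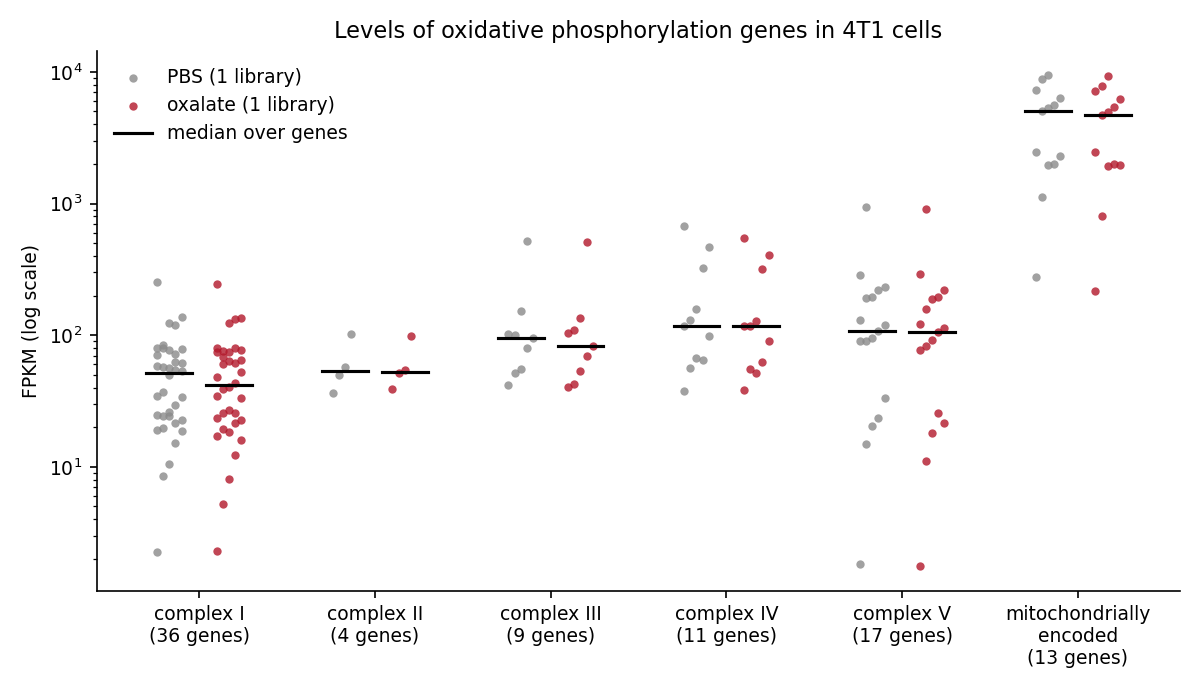
FPKM on a log axis of the 90 genes with a mean of at least 1 FPKM, by complex for nuclear genes and together for the 13 mitochondrially encoded genes, with PBS in grey and oxalate in red. Each point is 1 gene in 1 library and each bar the median over genes; the mitochondrial medians of 5073 and 4689 FPKM lie far above those of the nuclear complexes, and the libraries overlap in every group.

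Most of the genes were slightly lower in the oxalate library. Of the 90 expressed genes 70 were lower and 20 higher, a share of 77.8% lower where 49% of all 10267 genes were lower by any size. That split shrank to 61 lower and 29 higher when both libraries were scaled to equal sums, and to 50 lower and 40 higher when the trend of change with transcript length was taken away. The median log2 change was -0.052, beside 0.003 for all genes. At 1.2-fold, 15 genes were lower and 0 higher, where 5.19% of all genes were lower and 4.75% higher. At 1.5-fold 2 were lower, Atp5mpl and Ndufc1, where 1.05% of all genes were lower and 0.935% higher. At 2-fold there were 0, where 0.36% of all genes were lower and 0.292% higher.

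The nuclear and the mitochondrial genes had nearly the same median. It was -0.051 for the 77 nuclear genes, of which 58 were lower, and -0.053 for the 13 mitochondrial genes, of which 12 were lower, although the mitochondrial median turned to 0.029 when a trend with GC content was taken away. The nuclear median minus the mitochondrial one was 0.0019. The summed FPKM with oxalate was 0.938 times that with PBS for the nuclear genes and 0.946 times for the mitochondrial genes, beside 0.986 times for all expressed genes.

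Complex II had the summed level that differed least between the libraries. Its 4 genes summed to 245 FPKM with PBS and 243 FPKM with oxalate. Sdha was at 101 and 98.4 FPKM, with a log2 change of -0.042. Sdhb, the iron-sulfur subunit, was at 49.4 and 51.2 FPKM, a change of 0.051. Sdhc was at 36.5 and 39.2 FPKM, a change of 0.10 with a counting interval of 0.020 to 0.18. Sdhd, the other anchor, was at 57.3 and 54.5 FPKM, a change of -0.073. Both genes of the catalytic arm had intervals that spanned 0, and no Sdh gene passed 1.2-fold.

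Complex I held 37 nuclear genes in the table, 36 of them expressed, of which 25 were lower and 11 higher. Their median log2 change was -0.028, and it turned to 0.013 with the length trend taken away. All 7 that passed 1.2-fold were lower, and none is a core subunit; 3 genes of the complex were lower past 1.2-fold with the length trend taken away. Ndufc1, a small membrane-arm subunit, stood at 8.45 FPKM with PBS and 5.22 with oxalate, a change of -0.60 with an interval of -0.97 to -0.41. Ndufa5, a subunit of the peripheral arm, was at 24.2 and 18.4 FPKM, a change of -0.38. Ndufs4, an accessory subunit of the NADH-oxidizing module, was at 10.6 and 8.09 FPKM, a change of -0.35. Those 3 were the lowest in fold of the complex, and the intervals of all 3 lay below 0. Ndufa6, of the LYR family of small mitochondrial proteins, was at 54.0 and 43.3 FPKM. Ndufs5 was at 49.4 and 40.4 FPKM, Ndufs6 at 58.8 and 48.3 FPKM, and Ndufa1 at 15.1 and 12.3 FPKM. The changes of these 4 ran from -0.31 to -0.27. Ndufs6 overlaps Mrpl36 on the other strand, and no strand marking is stated for the libraries, so their reads cannot be told apart where they overlap; Mrpl36 was at 46.8 and 56.6 FPKM.

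The nuclear core of complex I was slightly higher. The 7 core genes encode the conserved subunits of the peripheral arm, among them those that carry the flavin and the iron-sulfur clusters, and 6 of them were higher with oxalate, with a median of 0.074, which was 0.11 with the length trend and 0.047 with the GC trend taken away. Ndufv1, the flavin-bearing subunit that binds NADH, was at 56.4 and 63.3 FPKM, a change of 0.16 with an interval of 0.093 to 0.24. Ndufv2, an iron-sulfur subunit, was at 72.5 and 79.2 FPKM, a change of 0.13. Ndufs8, Ndufs7 and Ndufs3 had changes of 0.074, 0.065 and 0.051, with intervals that spanned 0. Ndufs1, the largest subunit, was at 78.7 and 76.9 FPKM, a change of -0.032. None of the 7 passed 1.2-fold. The 29 other subunits had a median of -0.048, with 24 lower, but a median of 0.003, with 14 lower and 15 higher, with the length trend taken away.

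In complex III the core genes were divided and the small subunits were lower. Of its 9 nuclear genes, the 4 core genes had a median of 0.004, with 2 lower, which was -0.015 with the GC trend taken away. The 5 small subunits had a median of -0.21, with all 5 lower. Cyc1, which carries the heme that reduces cytochrome c, was at 102 and 104 FPKM, and Uqcrc2, a core protein, at 101 and 109 FPKM, a change of 0.12. Uqcrc1 and Uqcrfs1 had changes of -0.020 and -0.048. Uqcrh, the hinge protein beside Cyc1, was at 51.5 and 42.8 FPKM, a change of -0.26 that lay just short of 1.2-fold with the pseudocount of 1 and past it on the FPKM values alone. Uqcr10, Uqcrq and Uqcrb were at 80.0, 95.5 and 152 FPKM with PBS and at 69.1, 82.6 and 136 FPKM with oxalate. Uqcr11 was at 55.6 and 53.6 FPKM. With the length trend taken away 4 of the 5 small subunits were lower, with a median of -0.11.

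Complex IV had a median of -0.13 over 11 expressed genes, of which 9 were lower. This was the lowest of the nuclear complexes, but with the length trend taken away it was -0.051, above the -0.059 of complex V, and with its 7 unexpressed genes counted it was -0.016. Its summed FPKM was 2190 with PBS and 1933 with oxalate, 0.883 times as much. Apart from Cox7a2l, the nuclear genes of this complex encode small subunits around the mitochondrially encoded core. Cox7c was at 66.9 and 51.5 FPKM, a change of -0.37. Cox6a1 was at 672 and 546 FPKM, a change of -0.30 with an interval of -0.33 to -0.27. Cox5b was at 157 and 129 FPKM, a change of -0.28. Those 3 passed 1.2-fold, and 1 did with the length trend taken away. Cox8a, Cox6b1 and Cox5a had changes of -0.19, -0.14 and -0.13. Cox4i1, the largest nuclear subunit, was at 325 and 318 FPKM, and Cox6c at 118 FPKM in both.

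Complex V held 17 expressed nuclear genes, of which 15 were lower, with a median of -0.074 that was -0.059 with the length trend taken away. Its catalytic head is built from Atp5a1, Atp5b, Atp5c1, Atp5d and Atp5e. Atp5a1 (alpha) was at 286 and 293 FPKM, a change of 0.033, and Atp5b (beta) at 949 and 909 FPKM, a change of -0.062. Atp5c1, the gamma subunit that turns inside the head, was at 191 and 159 FPKM, a change of -0.27 with an interval of -0.32 to -0.22. It was the one core gene of complexes I, III and V past 1.2-fold, and it has 7 annotated coding transcripts. With the length trend taken away its change was -0.256, short of 1.2-fold, and 2 genes of complex V were lower past 1.2-fold. Atp5d (delta) and Atp5e (epsilon) had changes of -0.095 and 0.10.

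The stator, membrane and accessory genes of complex V were lower in 12 of 12 cases, with a median of -0.095, and in 8 of 12 cases with the length trend taken away. Atp5mpl, which encodes a small membrane proteolipid of the enzyme, stood at 33.3 FPKM with PBS and 21.4 with oxalate, a change of -0.61 with an interval of -0.82 to -0.46. Atp5k, the subunit e that helps ATP synthase form dimers, was at 14.9 and 11 FPKM, a change of -0.41 with an interval of -0.75 to -0.13. Atp5j, Atp5h, Atp5l, Atp5f1, Atp5j2 and Atp5o had changes from -0.22 to -0.050.

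**Figure D2:**
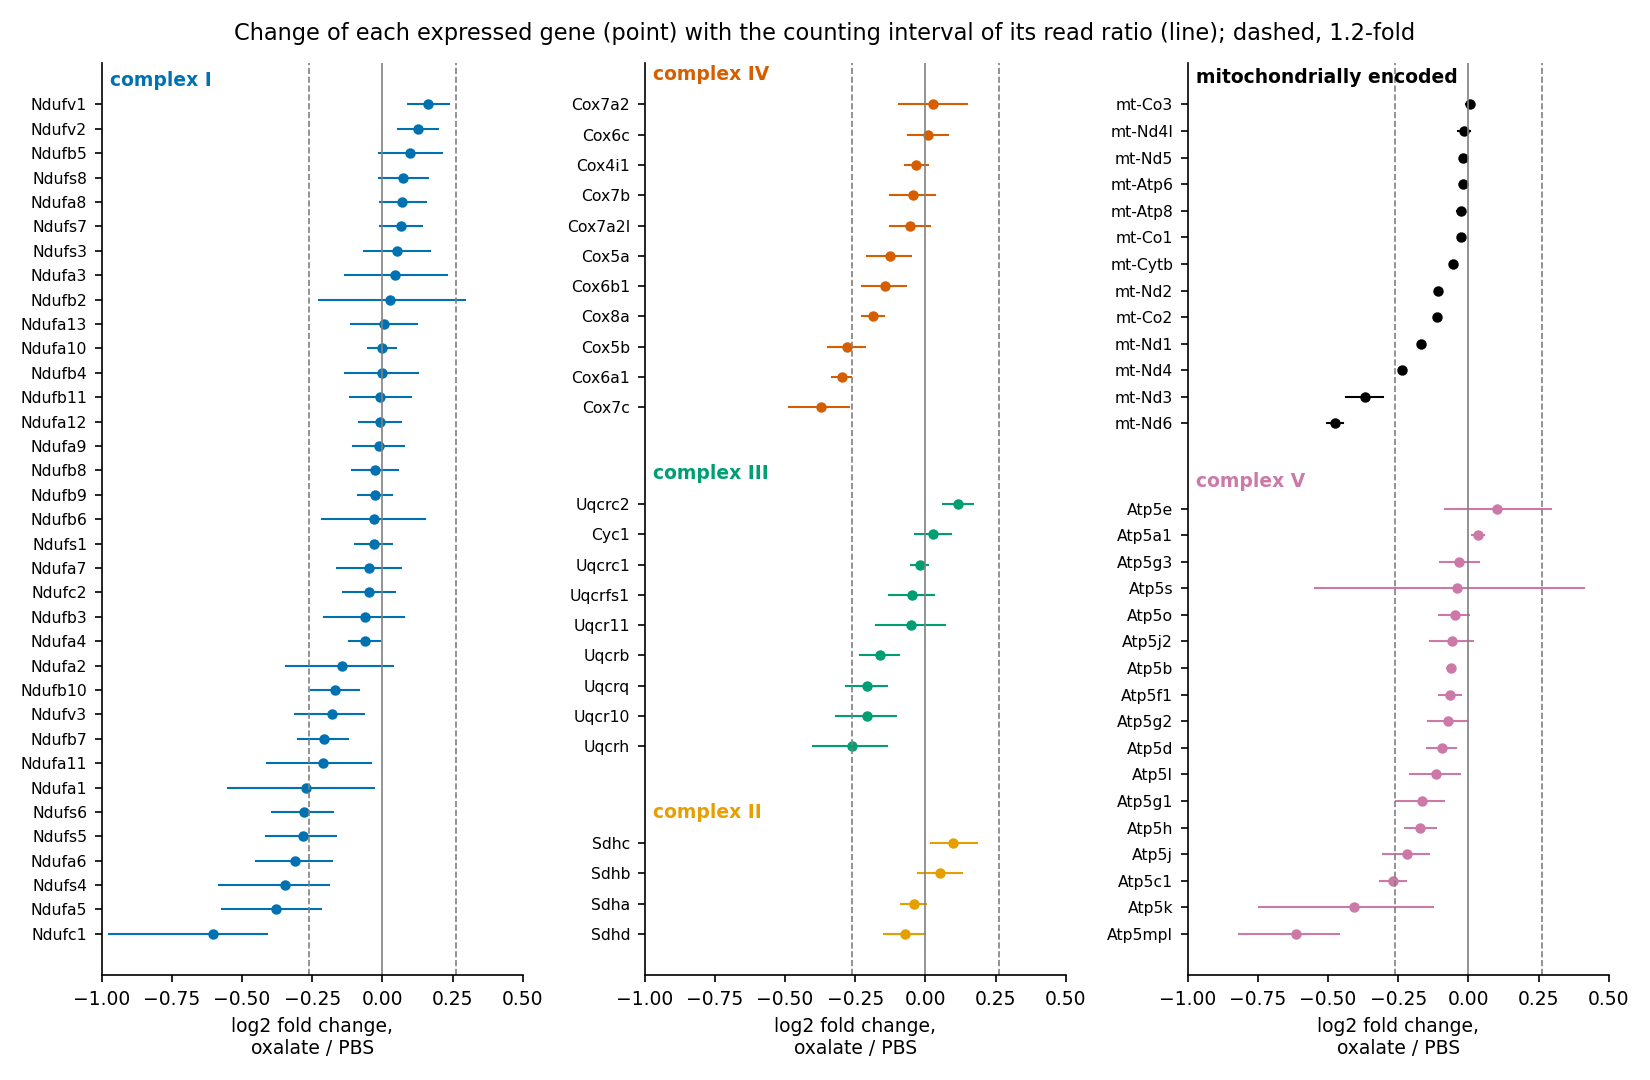
Log2 change from PBS to oxalate of 89 of the expressed genes (points, FPKM + 1), with the 95% counting interval of the ratio of estimated reads (lines) and 1.2-fold marked by dashed lines; vertical order is by change within each complex. The 15 genes left of the lower dashed line include 7 of complex I, 3 of complex IV, 3 of complex V and 2 mitochondrial genes, and no gene lies right of the upper one.

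The 3 lowest nuclear genes with an entry in the RefSeq promoter table are shown with the stretch around their transcription start, because nuclear respiratory genes are known to share binding motifs for NRF1, for ETS factors such as GABP and for YY1. Each is 180 bases on GRCm38.p6, 150 before the start and 30 from the start on, read 5′ to 3′ on the minus strand. Capitals mark a match to 1 of 3 searched motifs. Ndufc1 is shown for chr3:51408926-51409105, Atp5k for chr5:108434370-108434549 and Ndufa5 for chr6:24527661-24527840. The RefSeq starts lie 33, 49 and 323 bases from the GENCODE gene starts.
Ndufc1: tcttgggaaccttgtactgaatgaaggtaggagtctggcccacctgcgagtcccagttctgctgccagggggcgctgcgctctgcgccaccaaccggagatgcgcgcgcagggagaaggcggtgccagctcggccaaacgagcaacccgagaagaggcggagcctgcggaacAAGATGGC
Atp5k: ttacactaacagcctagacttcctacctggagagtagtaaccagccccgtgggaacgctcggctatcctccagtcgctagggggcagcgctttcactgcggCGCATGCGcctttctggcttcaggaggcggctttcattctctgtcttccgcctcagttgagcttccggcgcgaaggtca
Ndufa5: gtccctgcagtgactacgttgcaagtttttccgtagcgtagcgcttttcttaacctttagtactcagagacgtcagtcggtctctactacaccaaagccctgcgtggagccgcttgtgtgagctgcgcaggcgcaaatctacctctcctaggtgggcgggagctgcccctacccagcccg

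The YY1 letters of Ndufc1 lie just after the start, the NRF1 letters of Atp5k lie before it, and Ndufa5 had no match. The motifs searched on both strands of the 300 bases around each start, from 250 before it, were CGCATGCG (NRF1), CCGGAAGT (ETS) and AAGATGGC (YY1); the NRF1 letters read the same on both strands, and a promoter with matches to several motifs was counted under each. Of the 85 nuclear genes 66 had a promoter entry, 62 of them expressed. At least 1 motif was found in 20 of the 62, or 32.3%, beside 18.4% of 8158 expressed genes and 10.8% of all 16480 promoters. The NRF1 letters were in 8 and the YY1 letters in 8, or 12.9% each, beside 4.43% and 5.34% of expressed genes. The ETS letters were in 5, or 8.06%, beside 9.84%. A motif was found in 5 of the 12 genes past 1.2-fold that had an entry and in 15 of the other 50. These are letter matches, not binding sites.

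The 13 mitochondrially encoded mRNAs spanned a wide range although they are cut from long shared transcripts. The highest was mt-Co1, the catalytic subunit of complex IV, at 9418 FPKM with PBS and 9243 with oxalate. It was followed in both libraries by mt-Nd1, at 8837 and 7860 FPKM. The lowest was mt-Nd3 at 279 and 216 FPKM. The other members of complex IV were mt-Co2 at 5073 and 4689 FPKM, which carries the first copper site, and mt-Co3 at 1993 and 2001 FPKM. mt-Cytb, the one mitochondrially encoded subunit of complex III, was at 5573 and 5371 FPKM. The ATP synthase genes mt-Atp8 and mt-Atp6 were at 7342 and 6310 FPKM with PBS and at 7210 and 6221 FPKM with oxalate. All values but that of mt-Co3 were lower with oxalate.

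The mitochondrial genes of complex I were lower in 7 of 7 cases, with a median of -0.17, and in 5 of 7 cases with the length and GC trends taken away, with a median of -0.051. mt-Nd6 stood at 1121 FPKM with PBS and 807 with oxalate, a change of -0.47 with an interval of -0.50 to -0.45. It lies at chrM:13552-14070 on GRCm38 and is the only mRNA gene of the light strand, and its end overlaps that of mt-Nd5 on the opposite strand. Without strand marking, its reads cannot be told apart from those of RNA copied from the other strand across it. The change and its narrow interval therefore cannot be assigned to mt-Nd6 mRNA. mt-Nd3 had a change of -0.37 with an interval of -0.44 to -0.30. mt-Nd4 was at 2299 and 1951 FPKM, a change of -0.24, and mt-Nd1 had a change of -0.17. mt-Nd2 was at 5297 and 4918 FPKM, a change of -0.11. mt-Nd5 was at 1958 and 1930 FPKM and mt-Nd4l at 2473 and 2446 FPKM, with changes of -0.020 and -0.016. The 6 genes of the other complexes had changes between -0.11, for mt-Co2, and 0.005, for mt-Co3. Without mt-Nd6 the median of the 12 remaining mitochondrial genes was -0.040.

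Neighbours that share an mRNA did not all share a change. mt-Nd4l and mt-Nd4 overlap by 7 bases in 1 bicistronic mRNA, at chrM:10167-10173, and had changes of -0.016 and -0.24. Their counting intervals, -0.038 to 0.006 and -0.25 to -0.23, did not overlap, so values from 1 mRNA differed by more than counting error. The cause was not tested. mt-Atp8 and mt-Atp6 overlap by 43 bases and had changes of -0.026 and -0.020. The overlap of the latter pair, at chrM:7927-7969 on the plus strand of GRCm38, is shown because a read within it fits either gene. Capitals mark the start codon of mt-Atp6.
mt-Atp8 and mt-Atp6: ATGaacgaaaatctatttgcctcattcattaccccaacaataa

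Nuclear DNA also holds copies of mitochondrial sequence, and how reads with several matches were assigned is not given in the sources used here. The median GC content of the 13 genes was 37.1%, beside 51.9% for the nuclear members and 51.0% for all expressed genes. With the GC trend over all genes taken away 7 of the 13 were higher and 6 lower, and with the length and GC trends taken away 8 were higher and 5 lower.

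**Figure D3:**
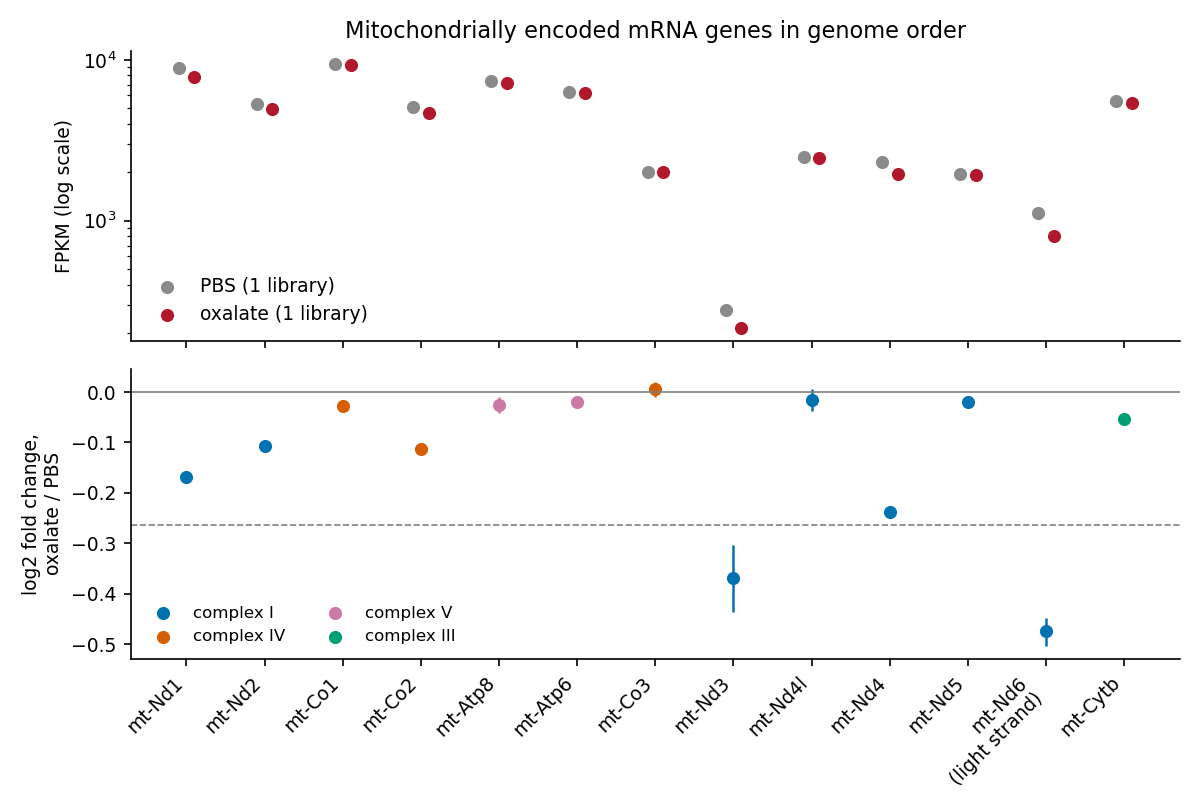
The 13 mitochondrially encoded genes in genome order, with FPKM per library on a log axis above (grey PBS, red oxalate) and the log2 change below, coloured by complex, with 95% counting intervals as lines and 1.2-fold dashed. mt-Nd3 and mt-Nd6 lie below the dashed line, at -0.37 and -0.47, while mt-Co3 lies at 0.005; with the GC trend taken away the median of the 13 changes sign, from -0.053 to 0.029.

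Transcript length moved with these changes. Nuclear members are short, with a median over genes of 0.754 kb in mean coding transcript length, beside 2.19 kb for all expressed genes. The 38 of up to 0.75 kb had a median change of -0.15, with 34 lower and 10 past 1.2-fold, and the 39 longer ones a median of -0.014, with 24 lower and 3 past 1.2-fold. Short genes were lower in general. Of 423 expressed genes of up to 0.75 kb, 44 of them members of the set, 70.7% were lower by any size. Past 1.2-fold, 18.4% were lower and 4.26% higher. Genes outside the set had a median of -0.12 up to 0.5 kb, -0.069 from 0.5 to 0.75 kb, -0.031 from 0.75 to 1 kb and 0.041 over 5 kb. The nuclear members in the first 3 of these ranges had medians of -0.21, -0.15 and -0.008.

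Across the 77 nuclear genes the Spearman correlation of change and length was 0.48, beside 0.15 across 10234 expressed genes with a length; all points share the same 2 libraries. It was 0.17 with GC content and 0.048 with mean FPKM. Across the 13 mitochondrial genes the correlation with length was 0.027. When a running median over length was subtracted, the median of the 90 genes went from -0.052 to -0.025 and the count past 1.2-fold from 15 lower to 8 lower and 0 higher. All 15 stayed below 0, which was fixed by their selection. Each was at -0.27 or lower, a larger change than the length trend of any member. The core genes of complexes I, III and V, with a median length of 1.04 kb, had a median change of 0.042, which was 0.064 after the subtraction. The 46 other nuclear genes of these complexes, with a median length of 0.660 kb, had a median of -0.070, which was -0.028 after it.

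**Figure D4:**
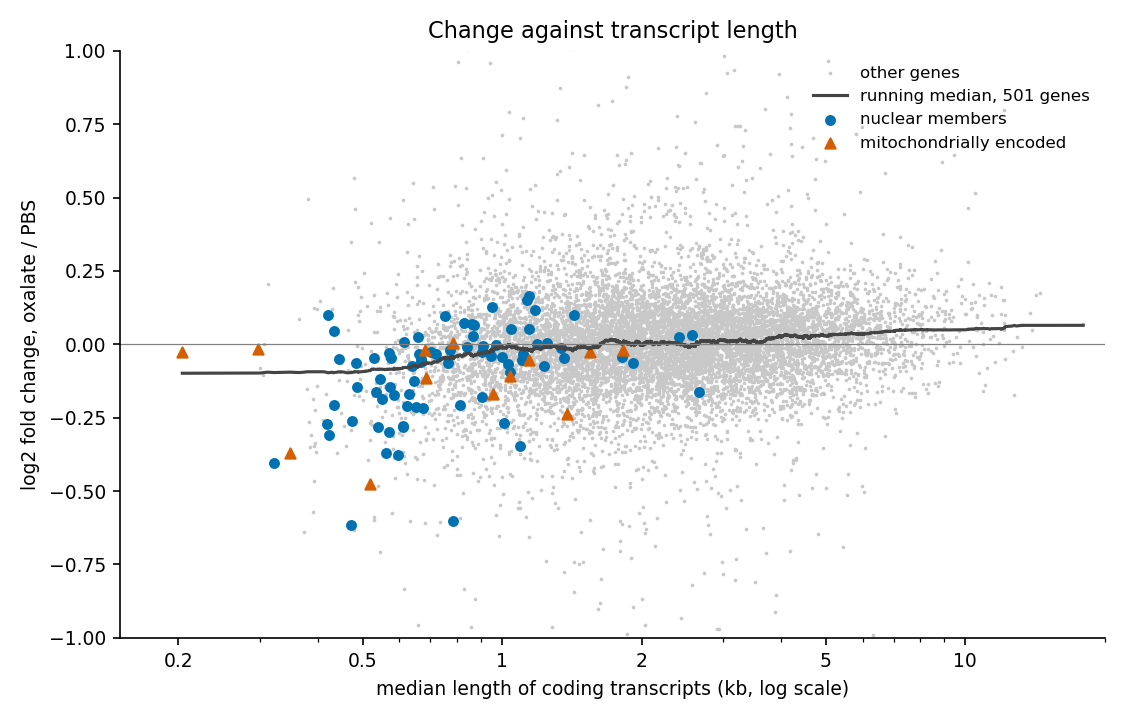
Log2 change of expressed genes against the mean length of each gene's annotated coding transcripts, which the label of the log axis calls a median. Nuclear members are in blue, mitochondrially encoded genes are orange triangles and other genes are grey. The line is the running median over neighbouring genes, and 67 other genes lie outside the plotted range. The line runs lowest at the short end and highest at the long end, and the nuclear members of up to 0.75 kb have a median of -0.15.

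The isoform families showed 1 form each in most cases. Several complex IV subunits have a form of most tissues and a form of heart and skeletal muscle, lung or testis. Cox6a1, Cox6b1, Cox7b, Cox8a and Ndufa4 were at 56.8 to 672 FPKM with PBS and 55 to 546 with oxalate, while Cox6a2, Cox6b2, Cox7b2, Cox8b, Cox8c and Ndufa4l2 were listed at 0 in both. Cox4i1 was at 325 and 318 FPKM and Cox4i2, the form of lung that hypoxia induces, at 0.02 and 0.04 FPKM, about 1 read in each library. In the Cox7a family the muscle form Cox7a1 was listed at 0. Cox7a2, the common form, was at 37.5 and 38.2 FPKM. Cox7a2l, which joins complexes III and IV into supercomplexes, was at 64.5 and 62.1 FPKM. At these depths a count of 0 allows up to 3 reads, which is 0.0567 to 0.147 FPKM with PBS and 0.0881 to 0.229 FPKM with oxalate for the 7 genes listed at 0.

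The promoters of 1 such pair are shown because 1 member was abundant and the other was listed at 0. Cox8a was at 465 and 408 FPKM and Cox8b at 0 in both. Each is 180 bases laid out as above, on the minus strand of GRCm38.p6, at chr19:7217587-7217766 for Cox8a and chr7:140900417-140900596 for Cox8b. Capitals mark the ETS letters, which Cox8a holds at the start in reverse complement and Cox8b does not hold in this window.
Cox8a: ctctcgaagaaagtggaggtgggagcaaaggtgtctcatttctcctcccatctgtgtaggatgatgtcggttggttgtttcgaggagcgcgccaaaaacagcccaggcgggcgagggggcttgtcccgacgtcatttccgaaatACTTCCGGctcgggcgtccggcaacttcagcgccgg
Cox8b: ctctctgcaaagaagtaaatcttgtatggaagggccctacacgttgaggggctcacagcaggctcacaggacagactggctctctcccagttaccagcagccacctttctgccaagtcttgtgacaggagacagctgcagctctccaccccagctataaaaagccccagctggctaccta

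Subunit c of ATP synthase, which forms the rotor ring, is made from 3 genes whose mature proteins are the same. Atp5g2 made up 48.1% of their summed FPKM with PBS and 47.7% with oxalate, Atp5g3 43.6% and 44.6%, and Atp5g1 8.28% and 7.68%. In FPKM, Atp5g1 was at 20.5 and 18.2, Atp5g2 at 119 and 113, and Atp5g3 at 108 and 106. The order was the same in both libraries and no share moved by more than 1 percentage point.

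**Figure D5:**
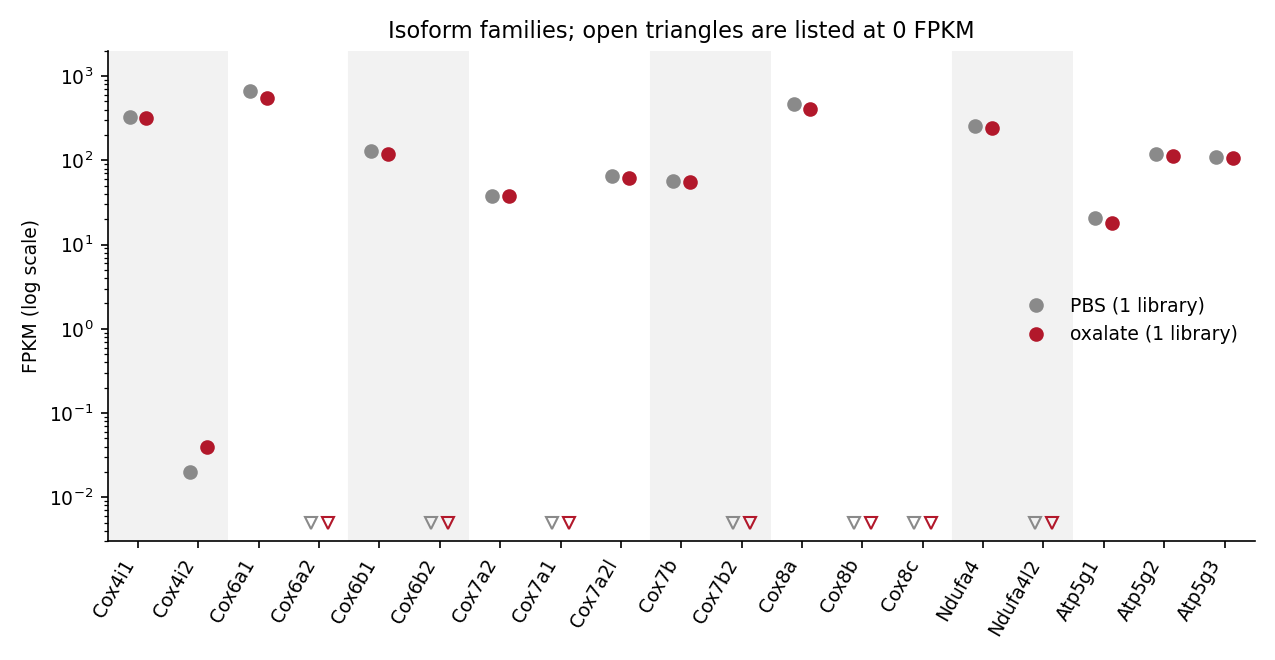
FPKM on a log axis of the isoforms of 8 subunit families, with PBS in grey and oxalate in red, 1 library each; open triangles at the bottom stand for genes listed at 0. In 6 families a single form carries 55 FPKM or more, whereas 2 of 3 Cox7a genes and all 3 Atp5g genes are expressed.

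The genes that build and supply the complexes were set beside them by lists. The counts below stand against 49% of all expressed genes lower by any size, and 5.19% lower and 4.75% higher past 1.2-fold. Of 78 mitochondrial ribosomal protein genes, which make the ribosome that translates the mitochondrial mRNAs, 56 were lower and 22 higher, with 7 lower and 1 higher past 1.2-fold and a median of -0.061. Mrpl2 had the lowest change, -0.51 (25.0 and 17.3 FPKM), and Mrpl36 the highest, 0.27. Of 32 genes for copying and transcribing mitochondrial DNA and for processing and translating its RNA 15 were lower and 17 higher, with a median of 0.003, or -0.006 at a mean of at least 5 FPKM. In that list Tsfm, a translation elongation factor, was at 21.2 and 16.2 FPKM and Polg2, a subunit of the DNA polymerase, at 1.77 and 2.42 FPKM.

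More of the enzymes that feed the chain were higher than lower with oxalate. The list of pyruvate dehydrogenase and the TCA cycle, without the Sdh genes, had 17 expressed genes, 11 of them higher and 6 lower. Its median was 0.055, and 1 gene passed 1.2-fold. This was Suclg2, the GTP-specific subunit of succinyl-CoA ligase, at 31.1 and 42.3 FPKM. Dlat, a pyruvate dehydrogenase component, was at 26.3 and 22.5 FPKM. Of 18 expressed genes for electron carriers, among them ubiquinone synthesis and cytochrome c, 10 were lower, with a median of -0.10. Coq6 and Coq9 of ubiquinone synthesis had the lowest and highest changes, -0.34 and 0.22. Ndufab1, a complex I subunit and acyl carrier protein outside the symbol pattern, was at 36.1 and 29.6 FPKM, also past 1.2-fold.

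Assembly factors were mixed. Of 14 for complex I 11 were lower, with a median of -0.069 and Ndufaf8, at -0.27, past 1.2-fold. Of 3 expressed for complex II, Sdhaf4, which protects free Sdha, was at 3.77 and 2.13 FPKM, a change of -0.61 and past 1.5-fold, Sdhaf1 had a change of -0.28 and Sdhaf2 of 0.023. Of 6 for complex III 3 were lower and 3 higher, with Uqcc2 at -0.35 and Uqcc1 at 0.43, and the median of -0.096 turned to 0.12 at a mean of at least 5 FPKM. Of 22 for complex IV 14 were lower, with a median of -0.062. Coa6, a copper-delivery factor, was at 17.3 and 13 FPKM, and Sco2, another, at 16.5 and 23.0 FPKM, changes of -0.39 and 0.45. For complex V, Atpif1, the inhibitor of the enzyme's reverse reaction, was at 173 and 152 FPKM, a change of -0.19, and Tmem70 at 12.9 and 13.7 FPKM.

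Of 8 expressed regulators of mitochondrial genes 6 were higher, with a median of 0.076, and 2 passed 1.2-fold. Nrf1 was at 16.4 and 21.4 FPKM, a change of 0.36, and Gabpb2, a subunit of GABP, at 5.80 and 9.19 FPKM, a change of 0.58. Gabpa and Yy1 had changes of -0.030 and -0.028. Of 24 import genes 17 were lower, with a median of -0.037, from Timm8a1 at -0.32 to Timm17b at 0.23. The ATP and ADP carriers Slc25a4 and Slc25a5 were at 202 and 324 FPKM with PBS and 188 and 335 FPKM with oxalate, and the phosphate carrier Slc25a3 at 409 and 424 FPKM.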

How the data were processed

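One library each of 4T1 cells kept with PBS or potassium oxalate was analysed. The authors deposited FPKM values rounded to 2 decimals. The submitters' processing notes name Bowtie2 2.2.8 and TopHat2 2.1.1. The quantifier, genome build, annotation and filters are not given in the sources used here. FPKM removes transcript length and library total only, so values depend on the length used and on effects that vary with length or GC content.

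Identifiers were matched to GENCODE M21 (GRCm38), 21848 of 21911, which gave symbols and coordinates. The length and GC content of a gene are means over its annotated coding transcripts. The comparison took in genes that averaged 1 FPKM or more, and 1.2-fold, 1.5-fold and 2-fold were counted. Reads were estimated from the steps of low FPKM values in genes of up to 0.7 kb (71 and 66 genes). Trends are running medians over 501 genes. Named genes were all mitochondrial and Sdh genes, isoform families, core subunits, extremes of each complex, members past 1.2-fold, and list genes past 1.5-fold or with the largest changes; others were added after their values were seen. A gene that this choice covers is not described here. The members and lists were chosen with earlier results of these data known. With 1 library per condition no test was made. Alternatives were other pseudocounts (0.1 and 0.001), filters, scalings, thresholds and subsets, and trends with GC content; the length trends were added after seeing the data. Scripts were tested on simulated data. Analyses ran in Python 3.11.15 with scipy 1.17.1, pandas 2.3.3, numpy 2.4.6 and, for plots, matplotlib 3.10.9.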

Additional observations from a re-analysis of the deposited data

How the results depend on the processing

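No paired analysis was possible because PBS and oxalate have 1 library each, and no difference has a replicate check. A median was taken as moved when it left the 95% order-statistic range of the genes' values. For the smallest groups, such as the 4 genes of complex II, the full range of the values was used instead. A ratio of sums was taken as moved when it left its counting interval, and a count beyond 1.5 times. Of 84 alternative medians of complexes and genomes 77 stayed within range, as did 35 of 36 for the lists. Some settings left a group's genes unchanged, so their medians could not move. The range was also wide: that of the complex III assembly factors held both -0.096 and 0.12. For named genes, 112 of 112 values under other pseudocounts stayed within their counting intervals. This was largely fixed in advance, because the intervals use no pseudocount and smaller pseudocounts bring values closer to the plain ratio. With the length trend taken away, a setting chosen after seeing the data, the medians were 0.013 for complex I, -0.018 for the nuclear genes and 0.058 for the carriers, and 8 genes were lower past 1.2-fold. With length and GC trends taken away, also chosen after seeing the data, the medians were -0.022 for complex V, -0.016 for the nuclear genes and 0.062 for the mitochondrial genes, the nuclear minus mitochondrial difference was -0.078, and 6 genes were lower past 1.2-fold. With the GC trend alone the mitochondrial median was 0.029 and the difference -0.092. The nuclear mean was -0.097. Past 1.5-fold 2 genes were lower and past 2-fold 0, and 4 of the 38 genes with 1 coding transcript were lower past 1.2-fold. Scaled to equal sums, the ratios of summed FPKM were 0.987 for complex I, 0.973 for III, 0.896 for IV, 0.955 for V and 0.960 for the mitochondrial genes; scaled without the mitochondrial genes they were 0.95 for V and 0.956 for the mitochondrial genes. The cause of these shifts was not tested. Depth limits the low genes: Atp5s had 99 and 61 estimated reads and an interval of -0.55 to 0.41.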
